A study of Homo sapiens with 21 samples.

Results

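FGFBP1, the FGF ligands FGF1, FGF2 and FGF5 and the receptors FGFR1 to FGFR4 were followed in HEY cells given the microRNA mir-429. The 8 genes are read by every probe set that the annotation of the HG-U133 Plus 2.0 array assigns to their symbols, which gave 33 of 54675 probe sets, or 8 of 19775 genes with a probe set. FGFBP1 has 1 probe set, FGF1 3, FGF2 2, FGF5 3, FGFR1 7, FGFR2 11, FGFR3 2 and FGFR4 4. FGFBP1 was chosen by its measured difference between mir-429 and control arrays in these same data, so its values are given as a description with no test. The ligands and receptors were listed with earlier results of these data known, and their calls are not independent evidence.

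HEY is an established human ovarian carcinoma line, so all results come from 1 line in culture. The arrays form 7 groups of 3 that the labels call biological replicates. Cells taken before transfection (0 h) form the untransfected group. The control groups received a synthetic negative control microRNA and were taken at 24, 48 and 144 h. The mir-429 groups received mir-429 and were taken at the same 3 times. Both transfected arms were transfected with a Lipofectamine lipid reagent, which the untransfected cells did not see. The dose of either microRNA is not given in the sources used here. Each value is a log2 signal from robust multi-array averaging (RMA), and a difference of 1 is a change of 2-fold.

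FGFBP1 is a secreted carrier protein that binds FGF1, FGF2 and related ligands and releases them from heparan sulfate in the extracellular matrix, where they are stored in an inactive form. Released FGFs bind receptor tyrosine kinases together with heparan sulfate, and the receptors signal through adaptors to the ERK cascade, which switches on ETV transcription factors and the Sprouty and DUSP feedback inhibitors. mir-429 belongs to the miR-200 family, which represses the transcription factors ZEB1 and ZEB2 and is known for holding carcinoma cells in an epithelial state.

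The mature sequences of mir-429 and its relatives are shown because the seed, bases 2 to 8, decides which messages a microRNA pairs with. They are from RefSeq (GRCh38.p14), 5′ to 3′, with the seed in capitals.
hsa-miR-429: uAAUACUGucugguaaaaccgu
hsa-miR-200b-3p: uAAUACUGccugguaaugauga
hsa-miR-200c-3p: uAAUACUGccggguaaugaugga
hsa-miR-200a-3p: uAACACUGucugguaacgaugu
hsa-miR-141-3p: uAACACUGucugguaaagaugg
The transfected mir-429 lies at chr1:1169055-1169076 on the plus strand. Among 2545 mature human microRNAs in the table, 3 carry its seed, and they are the first 3 sequences above. The other pair share a seed of their own.

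The transfection labels were checked on genes known to follow this family. ZEB1 lay 1.29 ± 0.15 (SE) below control at 24 h (limma, adjusted p = 1.92e-05), 1.72 below at 48 h (adjusted p = 4.74e-07) and 0.14 below at 144 h (adjusted p = 0.717). FN1, which codes for fibronectin, differed by -1.70, -2.66 and -0.12 at the same times. CDS1, a lipid enzyme, was at least 2.44, 2.83 and 1.75 higher, the bound being set by the array median because the control arrays lay below it. Median signals of the arrays lay between 3.95 and 4.29. For the control probe sets of GAPDH and ACTB, the 3′ minus 5′ signal, a measure of RNA integrity and labelling length, was 7.83 ± 0.62 (SD, n = 3) in the control and 8.55 ± 0.15 in the mir-429 arrays at 48 h, and group means lay between 2.87 and 4.21 elsewhere. Those 2 extremes are the arms compared at 24 h, 4.0 to 4.43 on the control and 2.54 to 3.25 on the mir-429 arrays, without overlap. With that signal as a covariate, mir-429 calls at 24 h went from 5585 to 754 of all probe sets tested, from 4 to 1 of 19 for ligands and receptors and from 15 to 3 of 58 for the other pathway genes. Of 8 markers of the ovarian carcinoma line, KRT7, KRT8, KRT18, PAX8, WT1 and VIM lay above the array median on all 21 arrays. MUC16 lay below it on all 21, and KRT19 was also dim, at 3.41 to 4.39 with a median of 3.74. Above the median on all arrays were none of 6 leukocyte, 1 of 7 endothelial (CDH5) and 1 of 7 fibroblast (COL1A1) markers, and the list means of each group lay at 2.71 to 2.95, 4.17 to 4.69 and 3.62 to 3.73. PTPRC, CD3E, LYZ, ITGAM, EMCN, COL1A2, COL3A1, LUM and PDGFRA lay below the median on all arrays. In bulk RNA, fewer cells of a type and less RNA per cell cannot be told apart.

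FGFBP1 was higher in mir-429 than in control arrays at all 3 times, by 3.83-fold at 24 h, 3.04-fold at 48 h and 6.92-fold at 144 h. Its single probe set, 205014_at, gave 9.08, 8.86 and 9.0 in the untransfected arrays. The control arrays gave 6.92, 7.29 and 7.27 at 24 h, 8.42, 8.35 and 8.43 at 48 h, and 8.96, 8.42 and 8.33 at 144 h. The mir-429 arrays gave 9.13, 9.04 and 9.12 at 24 h, 10.27, 9.60 and 10.14 at 48 h, and 11.50, 11.29 and 11.29 at 144 h. At each time every mir-429 array lay above every control array. The log2 differences were 1.94 ± 0.17 (SE), 1.60 ± 0.17 and 2.79 ± 0.17, and the difference at 144 h exceeded that at 24 h by 0.85 ± 0.24. With the 3′ minus 5′ signal as a covariate they were 1.88, 1.63 and 2.77.

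**Figure D1:**
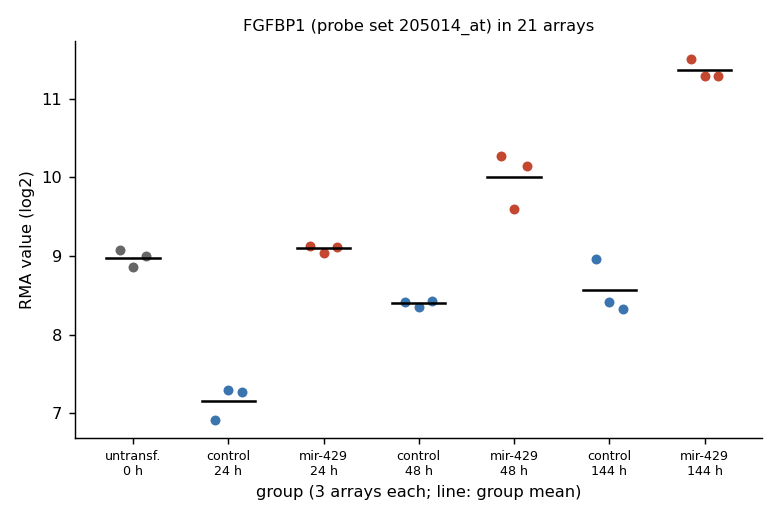
RMA log2 signal of FGFBP1 (vertical axis) in the 7 groups (horizontal axis), with 1 point per array and a line at each group mean. The control arrays at 24 h lie lowest, at 6.92 to 7.29, and the mir-429 arrays at 144 h highest, at 11.29 to 11.50.

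The control arrays were not flat. Relative to the untransfected mean, FGFBP1 lay 1.82 lower in control cells at 24 h, 0.58 lower at 48 h and 0.41 lower at 144 h. The mir-429 arrays lay 0.12, 1.03 and 2.38 above the untransfected mean at the same times. At 24 h the control level was low and the mir-429 level overlapped that of untransfected cells, whereas at 144 h the mir-429 level lay 5.21-fold above that of untransfected cells. These comparisons share arrays and are given side by side.

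In order of group means, FGFBP1 began with the control groups, at 7.16 ± 0.21 (SD, n = 3) for 24 h, 8.40 ± 0.04 for 48 h and 8.57 ± 0.34 for 144 h. Untransfected cells followed at 8.98 ± 0.11. The mir-429 groups came last, at 9.10 ± 0.05, 10.00 ± 0.35 and 11.36 ± 0.12 for 24, 48 and 144 h. Array ranges overlapped between control cells at 48 and 144 h, between control cells at 144 h and untransfected cells, and between untransfected cells and mir-429 cells at 24 h. The other neighbours in this order did not overlap.

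The genes whose 7 group means ran most like those of FGFBP1 were SCEL, PDGFB, FBXL5 and C1orf116, out of 11469 probe sets with group means spanning at least 1. Pearson's r over the 7 means was 0.968 for SCEL, which codes for sciellin of the cornified envelope, and 0.955 for PDGFB, a growth factor of the PDGF family. It was 0.928 for FBXL5, an iron-sensing F-box protein, and 0.916 for C1orf116. SCEL, PDGFB and FBXL5 were lowest in control cells at 24 h and highest in mir-429 cells at 144 h, as FGFBP1 was. C1orf116 was also lowest in control cells at 24 h but highest in mir-429 cells at 48 h. All these means come from the same arrays, and the genes were picked as the highest of many correlations. In control cells at 24 h the array medians were 4.21 to 4.29. The means of SCEL (3.54) and PDGFB (4.07) lay below them and that of C1orf116 (4.23) among them. PDGFB also had an SD of 0.64 in control cells at 144 h and 0.67 in mir-429 cells at 48 h.

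The RefSeq promoter window of FGFBP1, 250 bases before the start, is shown with one of FGF1 because CACCTG is an E-box that ZEB1 is known to bind, and ZEB1 changed in these cells. Both are on the minus strand of GRCh38.p14 and are written 5′ to 3′ with CACCTG in capitals where present.
FGFBP1, chr4:15938741-15938990: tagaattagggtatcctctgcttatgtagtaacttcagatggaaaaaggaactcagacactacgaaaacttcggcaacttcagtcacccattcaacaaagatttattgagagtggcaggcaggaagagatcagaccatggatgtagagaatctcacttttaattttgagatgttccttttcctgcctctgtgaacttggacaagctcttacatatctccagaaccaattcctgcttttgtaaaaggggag
FGF1, chr5:142698071-142698320: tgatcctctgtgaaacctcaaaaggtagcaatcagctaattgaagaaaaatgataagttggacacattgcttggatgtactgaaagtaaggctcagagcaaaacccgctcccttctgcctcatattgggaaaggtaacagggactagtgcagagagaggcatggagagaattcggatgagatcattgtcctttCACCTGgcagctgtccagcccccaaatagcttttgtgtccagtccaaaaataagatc
The search covered CACCTG on both strands. The FGFBP1 window held no match. Of 16 windows over 7 of the 8 genes, 4 held one: 2 overlapping windows of FGF1, 1 of 5 of FGFR2 and 1 of 2 of FGFR4. Of all 35116 windows in the table, 17.5% held one. A match is a description of these letters and not a binding site.

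FGF2, the basic FGF that FGFBP1 carries, rose with mir-429 at 24 and 48 h, and its arms overlapped at 144 h. Its probe set 204422_s_at gave 9.23, 9.49 and 9.39 in untransfected cells and 8.85, 9.09 and 8.63, then 9.38, 9.24 and 9.05, then 8.94, 9.09 and 9.18 in control cells at 24, 48 and 144 h. In mir-429 cells it gave 10.57, 10.44 and 10.42, then 10.83, 11.02 and 10.96, then 9.15, 9.19 and 8.76. The 6 mir-429 arrays of 24 and 48 h lay above every other array of the series, and at 144 h the groups overlapped. The differences were 1.62 ± 0.14 (SE), or 3.07-fold, at 24 h (limma, adjusted p = 6.41e-07) and 1.71, or 3.28-fold, at 48 h (adjusted p = 1.97e-07), against -0.04 at 144 h (adjusted p = 0.936). With the 3′ minus 5′ covariate the first 2 differences were 1.63 and 1.71, and both remained called.

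The other FGF2 probe set, 204421_s_at, differed from it in the control cells. It gave 7.17, 7.26 and 7.35 in untransfected cells and 7.48, 8.12 and 7.05, then 8.31, 8.78 and 9.08, then 6.84, 7.08 and 7.06 in control cells. In mir-429 cells it gave 9.09, 8.81 and 8.64, then 8.95, 9.52 and 9.30, then 7.12, 6.91 and 6.99. Groups at 24 h did not overlap, whereas those at 48 and 144 h did. The difference was 1.29 ± 0.23 at 24 h (limma, adjusted p = 0.000824), 0.53 at 48 h (adjusted p = 0.135) and 0.01 at 144 h. Adding the 3′ minus 5′ covariate left 0.88 ± 0.32 at 24 h (adjusted p = 0.196). Over 21 arrays the correlation of both probe sets was 0.78, given as a description.

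FGF1, the acidic FGF that binds all receptors of the family, differed between untransfected and control cells as well as between mir-429 and control cells. Probe set 1552721_a_at gave 7.37, 7.11 and 7.21 in untransfected cells and 6.20, 5.72 and 5.89, then 5.23, 5.60 and 5.84, then 7.03, 7.20 and 7.23 in control cells at 24, 48 and 144 h. In mir-429 cells it gave 6.87, 6.54 and 6.83, then 6.58, 6.58 and 6.39, then 6.61, 6.77 and 6.87. The mir-429 arrays lay above the control arrays at 24 and 48 h and below them at 144 h, with no overlap at any time. It rose by 0.81 ± 0.15 (SE) at 24 h (limma, adjusted p = 0.00153) and by 0.96 at 48 h (adjusted p = 0.000318), and the difference of -0.41 at 144 h was not called (adjusted p = 0.162). At 24 h the covariate left 0.65 ± 0.23 (adjusted p = 0.173).

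Probe set 205117_at of FGF1 did not show that rise. It gave 8.58, 8.38 and 8.52 in untransfected cells and 7.24, 7.44 and 7.17, then 5.44, 6.04 and 6.51, then 8.56, 8.11 and 8.41 in control cells. In mir-429 cells it gave 7.53, 7.45 and 7.66, then 6.25, 5.78 and 5.69, then 7.89, 7.77 and 7.91. Both arms were low at 48 h and overlapped there. The mir-429 differences were 0.26 (limma, adjusted p = 0.416), -0.09 (adjusted p = 0.835) and -0.50 ± 0.20 (adjusted p = 0.202). The third probe set, 208240_s_at, stayed between 4.33 and 5.60 on all arrays and was called in no comparison. The probe sets of FGF1 therefore disagree on mir-429 at the earlier times. At 144 h the mir-429 arrays lay below the control arrays without overlap on each of them. The differences there were -0.41 (1552721_a_at), -0.50 (205117_at) and -0.35 (208240_s_at), none of them called. Correlations between the probe sets over 21 arrays were 0.75, 0.36 and 0.46.

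**Figure D2:**
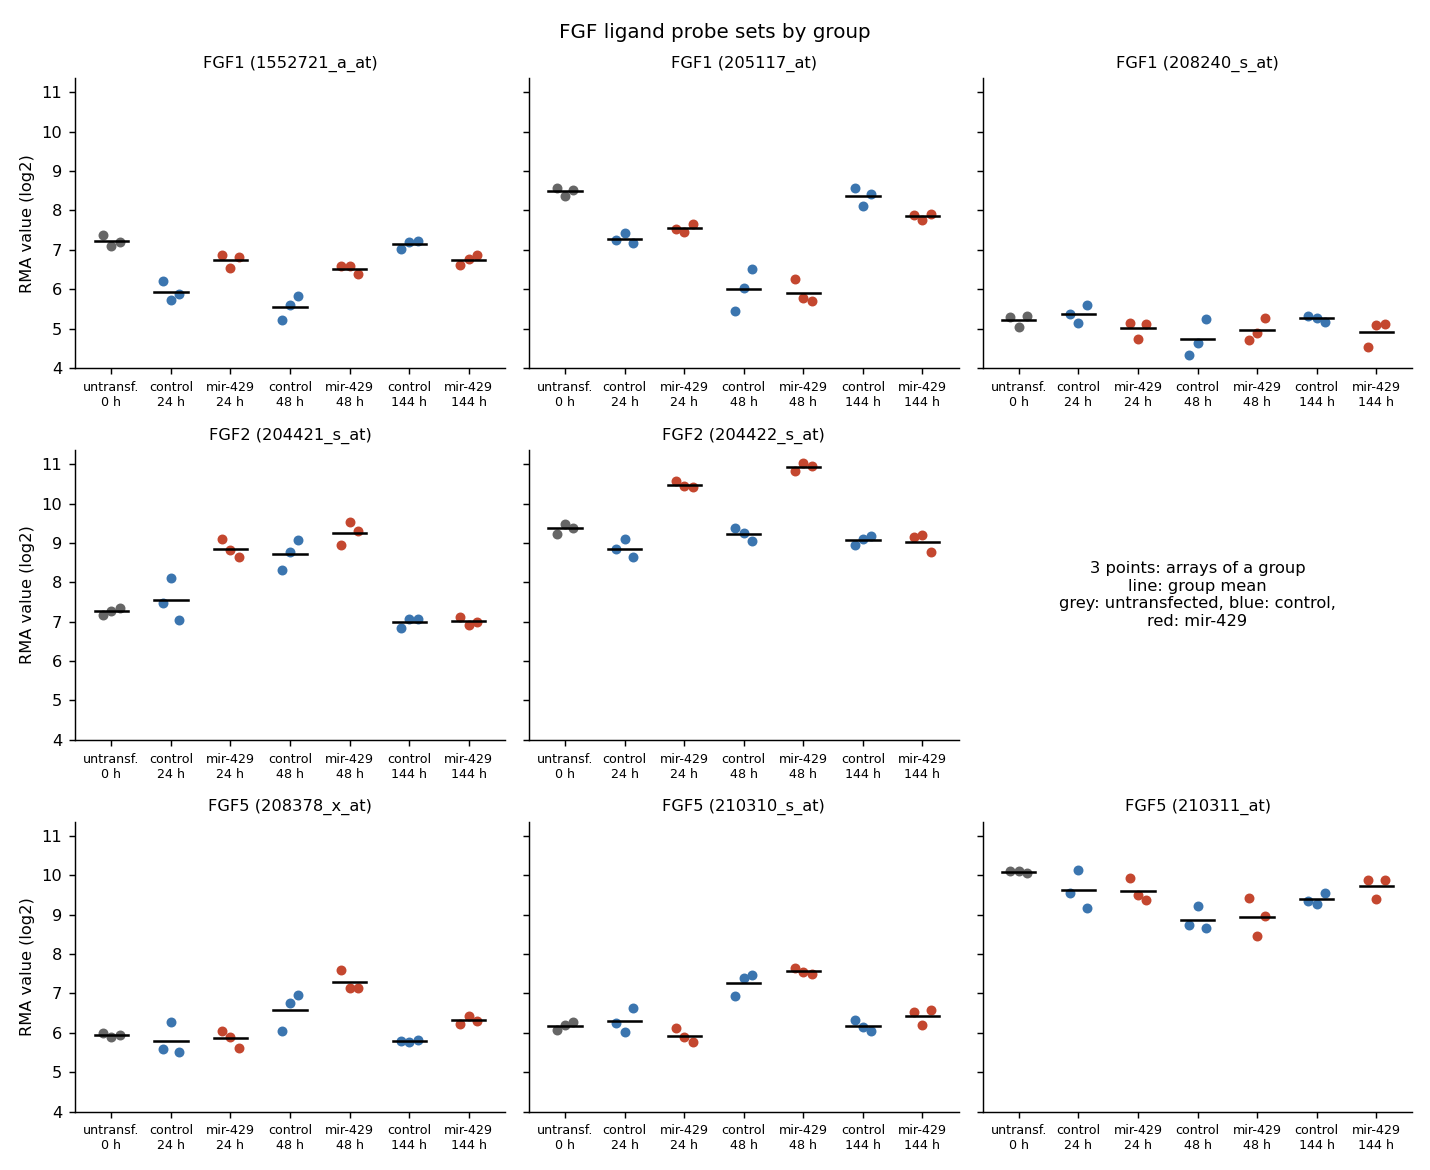
RMA log2 signal (vertical axes) of the 8 probe sets of FGF1, FGF2 and FGF5 in the 7 groups (horizontal axes), with 1 point per array and a line at each group mean. For FGF2 204422_s_at the mir-429 arrays at 24 and 48 h lie at 10.42 to 11.02, above every other array, and at 144 h both arms overlap.

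FGF5, a ligand best known for ending the growth phase of hair, has probe sets that moved in opposite ways between untransfected and control cells. Control cells at 48 h lay 0.65 (208378_x_at) and 1.09 (210310_s_at) above and 1.21 (210311_at) below untransfected cells. Probe set 208378_x_at gave 5.99, 5.89 and 5.95 in untransfected cells, 6.04, 6.77 and 6.95 in control cells at 48 h and 7.59, 7.14 and 7.14 in mir-429 cells at 48 h. It rose by 0.70 ± 0.21 (SE) with mir-429 at 48 h (limma, adjusted p = 0.0341), a call that was lost without the first control array of that time (0.43, adjusted p = 0.167) or the first mir-429 array (0.55, adjusted p = 0.141). The call was also lost with no filter (adjusted p = 0.0543), with only the arrays compared (adjusted p = 0.207) and with array weights (adjusted p = 0.0905). At 24 and 144 h the mir-429 differences of 208378_x_at were 0.07 and 0.53, neither called. Probe set 210310_s_at differed by -0.38, 0.30 and 0.25 at the 3 times and 210311_at by -0.02, 0.07 and 0.34, none of them called. The correlation of 208378_x_at with 210310_s_at over 21 arrays was 0.84, and those with 210311_at were -0.40 and -0.65.

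Among the receptors, FGFR1 had the most probe sets above the array medians. Of its 7, 5 passed the filter, which asks for a value above the array median on at least 3 arrays, and 4 were above it on all 21. Probe set 226705_at gave 9.18, 8.87 and 9.11 in untransfected cells and 8.96, 9.23 and 9.10, then 8.59, 8.42 and 8.46, then 9.18, 9.03 and 8.83 in control cells. In mir-429 cells it gave 8.79, 8.83 and 8.94, then 8.27, 8.28 and 8.15, then 8.52, 8.37 and 8.71. The mir-429 arrays lay below the control arrays at each time without overlap. The differences were -0.24 (limma, adjusted p = 0.186), -0.26 (adjusted p = 0.165) and -0.48 ± 0.12 (adjusted p = 0.0301) at 24, 48 and 144 h. The call at 144 h was lost when the first or the second array of either arm was left out, with adjusted p from 0.0998 to 0.142. The size of the difference then stayed between -0.40 and -0.47.

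Probe set 211535_s_at of FGFR1 gave 6.05, 6.31 and 6.43 in control cells and 5.97, 5.79 and 5.73 in mir-429 cells at 24 h. These groups did not overlap, and the fall of 0.44 ± 0.15 (SE) was close to the threshold (limma, adjusted p = 0.0468). Leaving out 1 array lost the call in 5 of 6 cases, the exception being the first control array, with adjusted p of 0.0596 to 0.199 in those 5. At 48 and 144 h the differences of this probe set were -0.14 and 0.01. The remaining FGFR1 probe sets tested, 207937_x_at, 215404_x_at and 222164_at, were not called for mir-429 at any time.

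FGFR2, a receptor whose splice forms mark epithelial or mesenchymal cells, was read by 11 probe sets with very unlike signals. Probe set 208229_at gave 10.06, 10.36 and 10.22 in untransfected cells and 10.02, 9.90 and 9.83, then 7.90, 9.36 and 9.04, then 10.49, 10.01 and 9.91 in control cells. In mir-429 cells it gave 10.39, 10.34 and 10.36, then 9.62, 9.15 and 9.20, then 10.52, 10.40 and 10.29. Both arms were lowest at 48 h. The differences of 0.44, 0.56 and 0.27 were not called (limma, adjusted p = 0.265, 0.169 and 0.688). The arms did not overlap at 24 h, and that difference was called when the 48 h arrays were left out of the fit (adjusted p = 0.0352). At 48 h the difference was 0.85 and called (adjusted p = 0.0265) without the second control array, and 0.96 and called (adjusted p = 0.0154) with the 3′ minus 5′ covariate. Of the other 10 probe sets, 7 lay below the array median on all 21 arrays, so whether 208229_at reads the same transcripts was not tested.

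Both FGFR3 probe sets lay below the median of every array, at 1.42 to 3.91, and were not tested. Of the 4 for FGFR4, 3 passed the filter. Probe set 211237_s_at lay above the median on all 21 arrays, at 4.33 to 5.51. Probe set 204579_at did so on 20 arrays, and 1554962_a_at on 7. No FGFR4 probe set was called in any comparison.

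**Figure D3:**
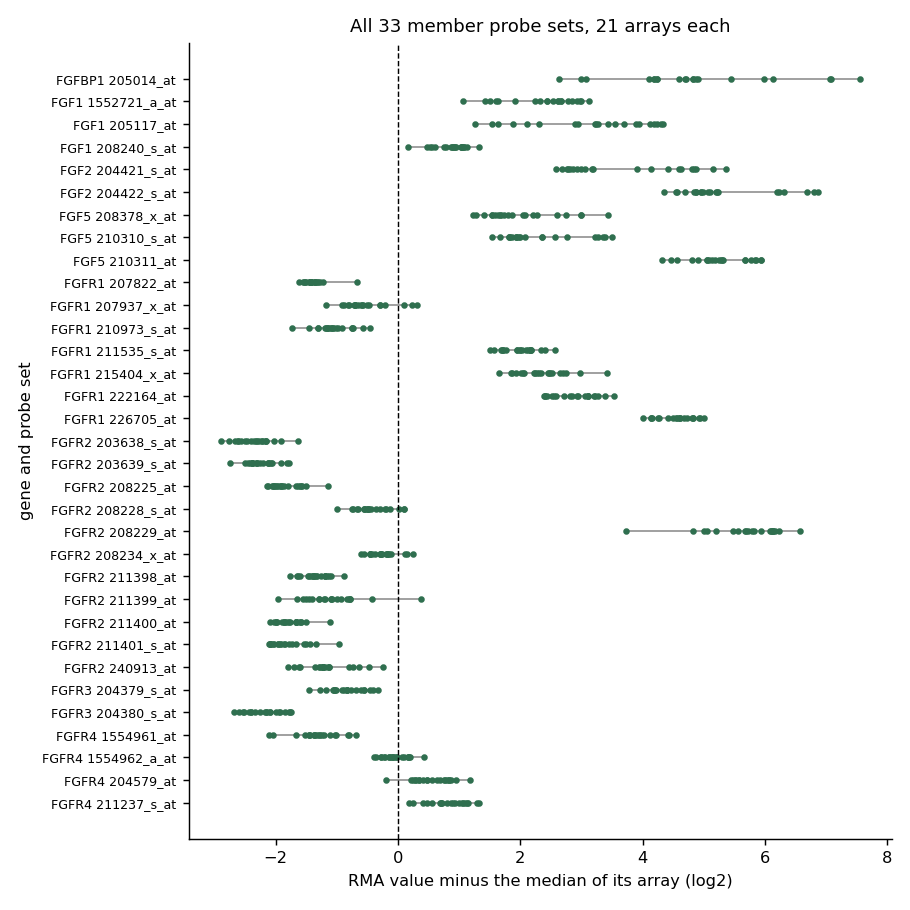
RMA log2 signal minus the median of its array (horizontal axis) for each of the 33 probe sets (vertical axis), with 1 point per array and a dashed line at the array median. Of the probe sets, 15 lie above the median on all 21 arrays and 12 below it on all 21.

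Of the 32 ligand and receptor probe sets, 19 passed the filter and were tested together with all 30520 probe sets that passed. At 24 h 4 of 19 were called between mir-429 and control, 3 higher and 1 lower, against 18.3% of all probe sets tested (10.6% higher, 7.7% lower). The higher calls were 1 FGF1 and 2 FGF2 probe sets, and the lower one was FGFR1 211535_s_at. At 48 h 3 of 19 were called, all higher (1 each of FGF1, FGF2 and FGF5), against 15.3% (7.02% higher, 8.28% lower). At 144 h 1 of 19 was called, FGFR1 226705_at, which fell, against 4.29% (0.872% higher, 3.42% lower). These shares are close to those of all probe sets, and the median difference of the 19 was -0.04, 0.07 and 0.01, against -0.02, 0.00 and -0.05 over all probe sets. Among the 19, FGF2 204422_s_at had the largest difference at 24 and 48 h.

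**Figure D4:**
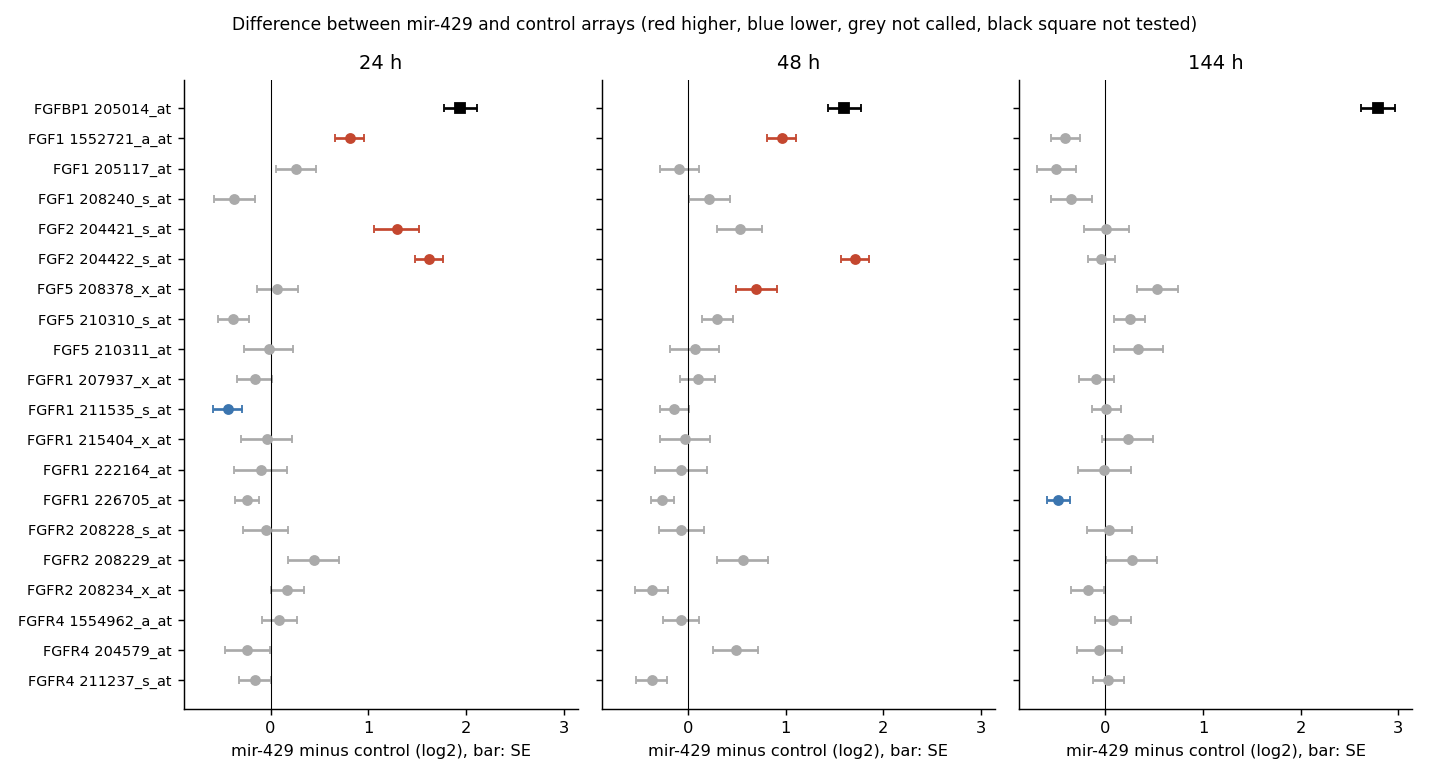
Log2 difference between mir-429 and control (horizontal axes, bars show the SE) at 24, 48 and 144 h for FGFBP1 and the 19 ligand and receptor probe sets tested (vertical axis). FGFBP1, drawn as a black square and not tested, lies at 1.94, 1.60 and 2.79, whereas FGF2 204422_s_at lies at 1.62 and 1.71 and then at -0.04.

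The change of the mir-429 difference from 24 to 144 h was tested directly. It was called for 3 of 19 probe sets, all lower, against 11.6% of all probe sets tested (3.39% higher, 8.25% lower). FGF2 204422_s_at changed by -1.66 ± 0.20 (SE; limma, adjusted p = 8.69e-05) and FGF2 204421_s_at by -1.28 ± 0.32 (adjusted p = 0.0165). FGF1 1552721_a_at changed by -1.22 ± 0.22 (adjusted p = 0.00199). The change of 204421_s_at was not called without the first mir-429 array of 24 h (adjusted p = 0.0523) or with the covariate (adjusted p = 0.0812). FGFBP1 went the other way, by 0.85 ± 0.24, as a description.

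Control cells also differed from untransfected cells in these genes, and the same control arrays enter the mir-429 comparisons above. The untransfected cells were taken at 0 h, so transfection and time in culture cannot be told apart. At 24 h 3 of 19 ligand and receptor probe sets fell and none rose relative to untransfected cells, against 29.9% of all probe sets called (13.4% higher, 16.4% lower). FGF1 fell by 1.29 (1552721_a_at; limma, adjusted p = 1.57e-05) and by 1.21 (205117_at; adjusted p = 0.000329). FGF2 204422_s_at fell by 0.51 (adjusted p = 0.00978), a call lost without the third control array (-0.40, adjusted p = 0.0644). At 144 h none of 19 was called by limma, with 2 at an unadjusted p under 0.05, against 0.236% of all probe sets (0.134% higher, 0.102% lower). With array weights 2 were called there, and the means of FGF1 1552721_a_at and 205117_at lay 0.08 and 0.14 below those of untransfected cells.

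At 48 h the control cells differed from untransfected cells in 10 of 19 probe sets, 5 higher and 5 lower, against 52.6% of all probe sets tested (20.9% higher, 31.7% lower). FGF1 fell by 1.67 (limma, adjusted p = 2.4e-07) and 2.50 (adjusted p = 7.21e-08) on 1552721_a_at and 205117_at, and FGFR2 208229_at fell by 1.45 (adjusted p = 0.000165). FGF2 204421_s_at rose by 1.47 (adjusted p = 4.66e-05) while 204422_s_at differed by -0.15. FGF5 rose by 0.65 (208378_x_at) and 1.09 (210310_s_at) and fell by 1.21 (210311_at). The call of 208378_x_at was lost without the second (0.56, adjusted p = 0.0657) or the third control array (0.46, adjusted p = 0.095). FGFR1 rose by 0.49 on 211535_s_at, a call lost without the third control array (0.37, adjusted p = 0.0561), and fell by 0.56 on 226705_at. The fifth probe set called higher, FGFR1 207937_x_at, gets no fold, because its group means lay 0.10 (control) and 0.89 (untransfected) below the array medians. It passed the filter through 3 of 21 arrays, all at 48 h. So within FGF5 and FGFR1 different probe sets of 1 gene were called in opposite directions. The 3′ minus 5′ signal of the control arrays was 7.83 ± 0.62 (SD, n = 3) against 3.15 ± 0.53 in untransfected arrays. Time and that signal cannot be told apart here, and with it as a covariate none of 19 was called and FGFR2 208229_at turned to 1.13 ± 0.82.

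The other genes of the pathway were taken from a list of 86, of which 79 have a probe set here and 58 passed the filter on their brightest probe set. With mir-429, 9 rose and 6 fell at 24 h, 10 rose and 5 fell at 48 h, and none rose and 1 fell at 144 h. These are 25.9%, 25.9% and 1.72% of the 58, beside 18.3%, 15.3% and 4.29% of all probe sets, which are not limited to 1 per gene. A fit with 1 probe set per gene, the like background, called 3425, 2649 and 754 of 12880 genes at the 3 times. No test set the list against that background. Leaving out the third control array of 24 h or the first mir-429 array of 24 h brought the count at that time from 15 to as low as 8, and with the covariate it was 3. Genes called in small classes are named below after their values were seen.

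Of 10 feedback inhibitors of the pathway, 4 were called higher and 1 lower at 24 h, beside 10.6% higher and 7.7% lower over all probe sets, with no test of the difference. SPRY1, a Sprouty protein that restrains receptor signalling, was 1.58 ± 0.35 (SE) higher as measured (limma, adjusted p = 0.00496). Its control arrays lay below the array median. With that median as a bound it was at least 0.74 higher, and the bound itself was not tested. DUSP5, a nuclear ERK phosphatase, rose by 1.10 ± 0.22 (SE; adjusted p = 0.00204) and SPRY2 by 0.49 (adjusted p = 0.0277). In control cells at 24 h, 6 of the 10 were called lower than in untransfected cells and none higher. Means in untransfected, control 24 h and mir-429 24 h cells were 5.03, 3.43 and 5 for SPRY1 and 9.06, 8.51 and 9 for SPRY2. Both mir-429 means thus did not exceed the untransfected mean. For DUSP5 the means were 8.28, 8.12 and 9.22. The SPRY2 call for mir-429 was lost in 8 of 16 alternatives, among them 5 that each left out 1 array. Without the third control array it was 0.39 (adjusted p = 0.148). SPRED2 was the other gene that rose, and SPRED3 fell. With the covariate, SPRY1 (0.88, adjusted p = 0.433), DUSP5 (0.52, adjusted p = 0.398) and SPRY2 (0.30, adjusted p = 0.565) were not called. SPRY4 and DUSP6 differed by 0.01 and 0.25 and were not called. At 48 h DUSP4 rose by 1.51 (adjusted p = 3.35e-05) and DUSP6 by 0.48 (adjusted p = 0.0231), DUSP5 was again higher, and SPRY2 (-0.02) and SPRY4 (0.16) were not called. The DUSP6 call was lost without the third control array of 48 h (0.30, adjusted p = 0.108), without the second mir-429 array (0.42, adjusted p = 0.0857), with the covariate (adjusted p = 0.0761) and with only the arrays compared (adjusted p = 0.25).

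Transcriptional targets gave 2 of 10 higher and 1 lower at 24 h, and 3 higher and 1 lower at 48 h, beside 18.3% and 15.3% of all probe sets called. ETV1, an ETS factor that ERK signalling induces, rose by 0.85 (limma, adjusted p = 6.86e-05) and 1.16 (adjusted p = 1.84e-06). Its control arrays had fallen by 1.33 from untransfected cells at 24 h (adjusted p = 6.72e-07), and its mir-429 means of 8.30 and 8.72 lay between the control means of 7.45 and 7.57 and the untransfected mean of 8.78. EGR1, an immediate early factor, rose by 1.25 at 48 h (adjusted p = 0.00644). FOS was higher and SPHK1 lower at both times. ETV4 and ETV5, ETS factors often read as targets of FGF signalling, differed by 0.26 and -0.01 at 24 h and by 0.24 and -0.17 at 48 h, none of them called.

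Heparan sulfate genes moved in both directions. At 24 h and again at 48 h, 2 of 6 proteoglycan and 2 of 8 modification genes were called. Of all probe sets 18.3% and 15.3% were called at these times, with no test of the difference. HS6ST2, which adds the 6-O-sulfate that FGF signalling needs, fell by 0.90 at 24 h (limma, adjusted p = 0.000213) and 0.77 at 48 h (adjusted p = 0.000784). NDST1, an enzyme of the first sulfation step, fell by 1.30 at 48 h (adjusted p = 3.18e-06), from a control mean of 10.22 to 8.92. Of 6 proteoglycan genes SDC2 rose and GPC1 fell at 24 h, and SDC1 and SDC2 rose at 48 h. The GPC1 means at 24 h, 8.49 in control and 7.92 in mir-429 cells, both lay above the untransfected mean of 6.27. HS2ST1, also a sulfotransferase, rose at 24 h.

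Among adaptors and signal transducers, PLCG1, the phospholipase that FGF receptors phosphorylate, fell by 1.10 ± 0.14 (SE) at 24 h (limma, adjusted p = 5.12e-05) and 0.96 at 48 h (adjusted p = 0.000152). Its mir-429 arrays lay at 8.88 to 8.95 at 24 h, against 9.91 to 10.19 in control cells, and the groups did not overlap. PTPN11, the phosphatase SHP2, fell by 0.60 at 24 h (adjusted p = 0.000449), a call lost with the covariate (-0.55, adjusted p = 0.0657). MAP2K1 rose at both times and GAB1 rose at 48 h. Of this class 3 of 13 genes were called at 24 h and 4 of 13 at 48 h, beside 18.3% and 15.3% of all probe sets. At 144 h the gene that fell was FGF12, an intracellular FGF homologue that binds sodium channels, by 0.98 ± 0.20 (adjusted p = 0.00837). That call was lost without the second control array (adjusted p = 0.0517) or the first mir-429 array of 144 h (adjusted p = 0.0504).

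**Figure D5:**
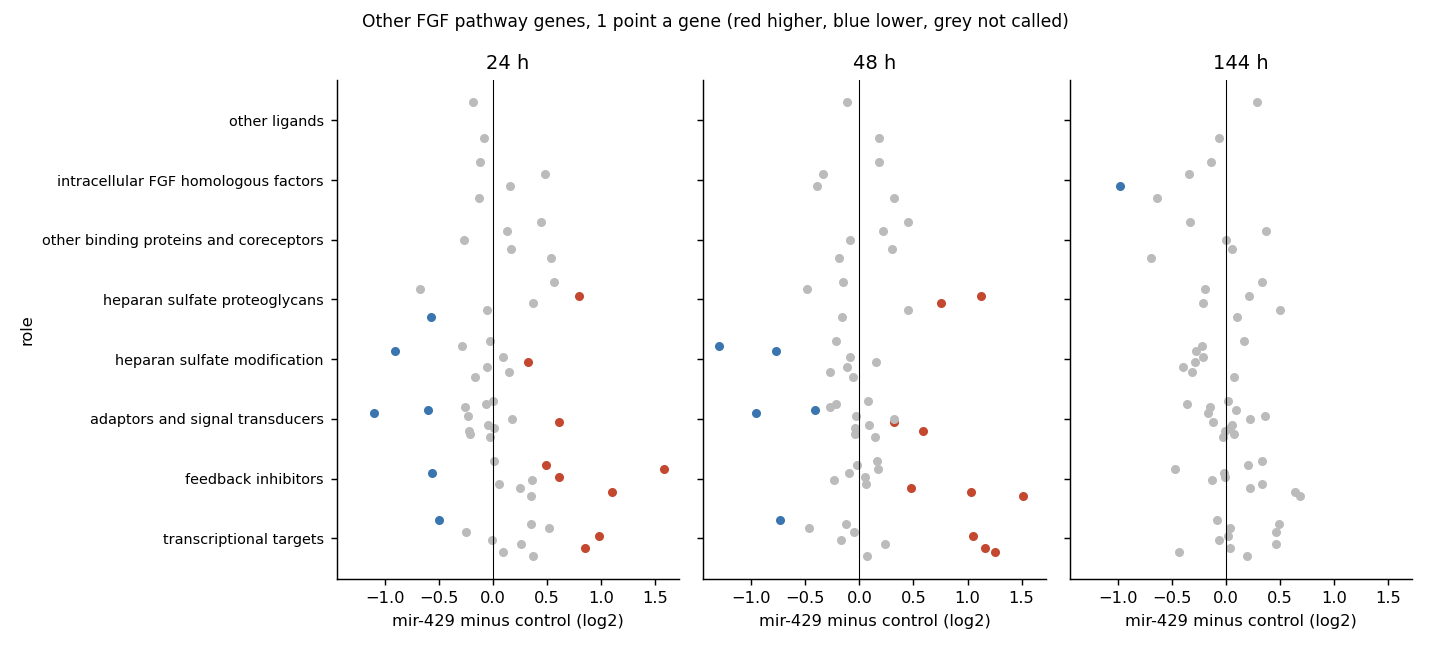
Log2 difference between mir-429 and control (horizontal axes) at 24, 48 and 144 h for the 58 other pathway genes, with 1 point per gene in rows by role (vertical axis). Called genes are coloured, and at 144 h FGF12, at -0.98, is the lone one.

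Control cells set against untransfected cells gave mostly lower values for the pathway list. At 24 h 2 of 58 rose and 20 fell (37.9%, beside 29.9% of all probe sets), and at 48 h 6 rose and 24 fell (51.7%, beside 52.6%). With 1 probe set per gene, 4897 of 12880 genes were called at 24 h and 7023 at 48 h. GPC1, a glypican, rose by 2.21 at 24 h (limma, adjusted p = 2.21e-07) and EXT2 by 0.38, a call lost in 5 of 16 alternatives. FGFBP3, a relative of FGFBP1, fell by 1.42 at 24 h (adjusted p = 0.000643) and by 1.62 at 48 h (adjusted p = 6.09e-05), where the covariate turned it to 0.58. SPRY1 was at least 0.77 lower at 24 h, and SPRY2 (-0.55) and ETV5 (-0.79) also fell. With the covariate the 24 h differences of FGFBP3 (-0.92, adjusted p = 0.0598) and SPRY1 (-1.06 as measured, adjusted p = 0.133) were not called. The SPRY2 call was lost without the third control array of 24 h (-0.44, adjusted p = 0.0615) and with the covariate (-0.40, adjusted p = 0.204). DUSP6 was called lower by 0.39 (adjusted p = 0.0384), but 9 of 16 alternatives lost the call, 5 of them by leaving out 1 array. At 48 h MYC rose by 3.04, SDC3 by 1.22 and SPRY2 by 0.82, whereas MAP2K2 fell by 2.10, SDC1 by 1.79, ETV4 by 1.19, DUSP6 by 0.70 and ETV5 by 0.53. With the covariate 1 of 58 was called at 48 h. At 144 h none of 58 was called by limma, with 11 at an unadjusted p under 0.05 and 16 called with array weights.

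The genes whose group means ran most like those of the other members were named by the same rule. For FGF2 204422_s_at they were FARP1 and SMIM13 (both r = 0.992) and DDHD1 and SVIP (both r = 0.979), all lowest in control cells at 24 h and highest in mir-429 cells at 48 h. For FGF1 205117_at they were PTGR3 (0.998), MIB2 (0.996), SHANK3 (0.994) and RTF1 (0.993), all lowest in mir-429 cells at 48 h. For FGFR2 208229_at they were PRRC2B, IDS and GANAB (each 0.995) and FBXL6 (0.994), all lowest in control cells at 48 h. For FGF5 210311_at they were LOC374443 (0.981), N4BP2L2 and CCDC150 (both 0.972) and ABHD17A (0.970). The last 3 lists are lowest at 48 h, on arrays whose 3′ minus 5′ signal stood apart. Its part in these likenesses was not tested. FARP1 had a mean of 6.34 with an SD of 1.5 in control cells at 24 h. The lowest group means of DDHD1 (3.26), IDS (3.18), CCDC150 (3.87) and ABHD17A (3.32) lay below the array medians, so their likeness is less well measured.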

How the data were processed

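The deposited values are log2 signals per probe set, made by the authors with RMA per the submitters' processing notes; its version is not given in the sources used here. RNA was labelled from the 3′ end with the Applause 3′-Amp system, per the labels' protocols. RMA normalizes arrays to a like distribution, so a shift shared by most genes cannot be seen. Genes were named through the platform annotation: 41097 probe sets carry 1 symbol, 1801 several and 11777 none, and those with several or none were not named.

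The 7 group means were estimated together from all 21 arrays by limma (version 3.58.1, under R 4.3.3), whose moderated two-sided test was used. The 62 AFFX control probe sets and 24093 probe sets not above their array's median on at least 3 arrays were left out, leaving 30520. P-values were adjusted by Benjamini-Hochberg over these, with calls at 0.05, in 7 comparisons. They measure the spread between the 3 arrays of a group, which the labels call biological replicates. Nothing was recomputed from scanner files, and the number of arrays limits the precision.

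The members and gene lists were chosen with earlier results of these data known. Pathway genes were read on their brightest probe set. Every member is named. Per comparison the rule takes the 3 called pathway genes with the largest rise and the 3 with the largest fall without overlap. SPRY2, SPRY4, DUSP6, ETV4 and ETV5 were added to it. Further called genes of small classes were named outside this rule, after their values were seen. For members whose brightest probe set spans at least 1, the 4 genes with the highest correlation over group means are named. Listed genes with no probe set here were not analysed here. The test was checked on simulated data. Alternatives covered normalization, filter, probe set choice, arrays fitted, array weights, a 3′ to 5′ covariate, a replicate block and leaving out each array. Replicate numbers did not pair the arrays (see the closing section).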

Additional observations from a re-analysis of the deposited data

Results flagged for a closer look

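The difference between mir-429 and control changed from 24 to 144 h for 9 probe sets among the members and named pathway genes. The change itself was tested (limma, Benjamini-Hochberg over all probe sets tested). The pathway genes among the 9 were named for having the largest called changes. Of the whole list 10 of 58 were called, 4 higher and 6 lower, beside 11.6% of all probe sets tested. The difference fell for FGF2 204422_s_at (-1.66, adjusted p = 8.69e-05), FGF2 204421_s_at (-1.28, adjusted p = 0.0165) and FGF1 1552721_a_at (-1.22, adjusted p = 0.00199). In the pathway list it fell for SPRY1 (-2.05, adjusted p = 0.0142), FGFBP3 (-1.23, adjusted p = 0.038) and FGF12 (-1.13, adjusted p = 0.0143). The SPRY1 value uses control arrays of 24 h that lay below the array median, so its size is not well measured. Its mir-429 arrays of 144 h were also dim, at 3.61, 3.75 and 4.54, with array medians of 3.95 to 4.22. The SPRY1 change was not called with the 3′ to 5′ covariate (-1.64, adjusted p = 0.0719). The FGFBP3 call was lost in 13 of 22 alternatives, among them quantile normalization (adjusted p = 0.0692), the replicate block (adjusted p = 0.0523), the covariate (-0.86, adjusted p = 0.176) and 9 fits that each left out 1 array. It rose for PLCG1 (0.93, adjusted p = 0.00701), FOSL1 (0.71, adjusted p = 0.0216) and PTPN11 (0.69, adjusted p = 0.00435). The FOSL1 call was lost in 5 of 22 alternatives. PLCG1 and PTPN11 were lower with mir-429 at 24 h and near the control mean at 144 h.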

How the results depend on the processing

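FGFBP1 kept its direction under every alternative run, with mir-429 differences of 1.82 to 2.09 at 24 h, 1.47 to 1.80 at 48 h and 2.67 to 2.99 at 144 h. Leaving out single arrays gave 1.82 to 2.0, 1.47 to 1.80 and 2.67 to 2.99. FGFBP1 was chosen by this difference on the same arrays, so its kept direction is a description and no independent support. Over the 24 called values of ligands and receptors and 374 alternatives to them, 330 stayed called in the same direction, 43 were no longer called and 1 reversed. In the mir-429 comparisons FGF2 204422_s_at stayed called at 24 and 48 h under all of them.

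With the 3′ to 5′ covariate, ligand and receptor calls for mir-429 were 1 of 19 at 24 h and 0 at 144 h. Pathway calls were then 3 of 58 (24 h) and 2 (144 h). For control against untransfected cells pathway calls were 9 at 24 h and 1 at 48 h, ligand and receptor calls 0 at 48 h, and pathway calls for the change from 24 to 144 h 5. At 48 h against untransfected cells, FGFR2 208229_at reversed to 1.13 and FGFBP3 to 0.58; with 2 groups this far apart in that signal, the fitted values rest on its slope within groups.

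With 1 probe set per gene, ligand and receptor calls were 1 of 6 for mir-429 at 24 h, 1 at 48 h and 1 for the change, and 4 for control at 48 h, since fewer probe sets were tested; pathway calls at 144 h were 3. With no filter, pathway calls at 24 h were 9 of 79 and ligand and receptor calls at 144 h 0 of 32. With the stricter filter pathway calls at 144 h were 3. Fitting only the arrays compared gave pathway calls of 9, 7 and 2 for mir-429 at 24, 48 and 144 h. Without the 48 h arrays there were 2 ligand and receptor and 6 pathway calls at 144 h. At 144 h cyclic loess gave 0 and 2, and quantile normalization gave 2 pathway calls. Array weights gave 3 ligand and receptor and 12 pathway calls for mir-429 at 144 h, 2 and 16 for control at 144 h, 5 and 20 for the change, and 5 ligand and receptor calls for control at 24 h. The cause of these shifts was not tested unless stated.

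Leaving out single arrays gave, for ligands and receptors with mir-429, 3 to 4, 2 to 4 and 0 to 1 calls at the 3 times, and for control cells 2 to 4, 9 to 12 and 0. The change gave 2 to 4. For pathway genes it gave 8 to 15, 12 to 16 and 0 to 1 with mir-429, 14 to 24, 28 to 33 and 0 in control cells, and 7 to 16 for the change. The 14 came without the third control array of 24 h, and the 16 for the change without the second.

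The replicate numbers share only a number: the correlation of same-numbered deviations of mir-429 and control arrays was 0.37, 0.22 and 0.02 (24 h), -0.16, -0.09 and 0.07 (48 h) and 0.11, -0.03 and -0.11 (144 h), and 7 of 21 arrays matched their own number best. With the replicate block, ligand and receptor calls were 3, 3 and 1 at the 3 times, and pathway calls 15, 14 and 1. All counts depend on 3 arrays per group, and differences near the array median are the least well measured.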

Other observations

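FBXL5, one of the genes most like FGFBP1, also lies near it on chromosome 4 in RefSeq order, which was noticed after the likeness was computed. FBXL5 differed between mir-429 and control by 0.56, 0.47 and 0.46 ± 0.12 (SE) at 24, 48 and 144 h. The other genes nearby with a tested probe set differed by 0.22, -0.04 and 0.05 (FAM200B), by -0.05, 0.14 and -0.23 (BST1), by 0.19, 0.52 and -0.32 (CD38) and by 0.29, 0.05 and -0.19 (TAPT1). FGFBP2 and PROM1, also nearby, did not pass the filter. These values are a description chosen after the data were seen, and no test was made of the region.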
